A study of Rattus norvegicus with 16 samples.

Results

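The comparison of 2 rat skeletal muscles is described here: extraocular muscle (EOM) and the muscle that the labels call TA, collected at 6 hours (TA_6h). Arrays were chosen by their titles alone, so no measured value entered the choice. Of the 16 arrays of the series, 12 belong to the comparison. They hold 4 EOM arrays, numbered 1 to 4, and 8 TA_6h arrays, which were taken as 4 numbered samples on a pair of arrays each. The labels name no strain, age, genotype or treatment, give EOM no collection time and leave the start of the 6 hours unstated. They do not say whether a number marks an animal, so each p-value reflects how far the numbered samples scatter, and that scatter may be technical in origin. The fitted scatter also takes in the TA samples of the series collected at 1 hour (TA_1h), which are outside the comparison. On the arrays, 8799 probe sets each report a transcript by short oligonucleotides, 59 of them controls.

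Extraocular muscles are the small striated muscles that move the eyeball in the orbit. They are among the fastest of mammalian muscles, resist fatigue, keep myosin isoforms that limb muscles lose after birth, and hold both singly and multiply innervated fibres with a dense nerve and blood supply. Limb muscles work against load, store glycogen for anaerobic bursts and depend on stretch-sensing and membrane-tubule systems scaled to large fibres.

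Values below are the deposited intensities, raised to a floor at the 25th percentile of all values (56.5) where they lay under it, and geometric means over the pair of arrays of a TA_6h sample. Values in a row are given for replicates 1, 2, 3 and 4 in that order, and a log2 difference is EOM minus TA_6h with its standard error. A probe set or gene is called higher or lower when its adjusted p in the limma fit over all 7640 tested probe sets is under 0.05. In the EOM columns 24.3% of the deposited values lie below 0, down to -9382, whereas no TA_6h value does. Muscle and this difference between the deposited columns cannot be told apart in any result below. Results therefore rest first on the 2582 genes that were above the floor on all 12 arrays. Pairs of EOM arrays had log2 values correlated at 0.943 to 0.971, and pairs of an EOM and a TA_6h array at 0.732 to 0.817. TA_6h was not uniform, since the beta-actin middle over 3′ control ratio was 0.232 to 0.390 on the 4 arrays of replicates 3 and 4 and 0.884 to 1.28 on the 4 arrays of replicates 1 and 2, with 0.891 to 0.978 in EOM. The same ratio for Gapdh was 0.399 on array 1b and 0.161 on array 2b of TA_6h (letters mark the arrays of a pair, a being the unlettered array in replicates 1 and 2), 0.949 to 1.52 on the other 6 TA_6h arrays and 0.882 to 0.928 in EOM. The arrays of a pair lay more than 4-fold apart for 28 of the 2582 genes in replicate 1, against 8, 6 and 14 in replicates 2, 3 and 4. For Ankrd1, Csrp3, Flnc, Hspa1a and Atf3 the value without array 1b is given below, an alternative chosen after seeing the data. The arrays of replicate 1 also lay apart for Irf7 (159 and 835), Plin2 (559 and 2257) and Map1a (795 and 2357), among others. For these the value without array 1b is not given. The part of these differences between arrays in the results was not tested. The number of arrays limits the precision.

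The labelled tissues were checked against defining markers. Myh13, the myosin heavy chain named for extraocular muscle, read 7213, 8013, 7633 and 7848 in EOM and 222, 343, 101 and 261 in TA_6h. Of the muscle markers, Tnnt3, the fast troponin T, read 16046, 20176, 15650.2 and 21298 in EOM and 19407, 15509, 23039.8 and 15084 in TA_6h, and Des, the muscle intermediate filament protein, read 8656, 9079, 8454 and 9377 in EOM and 16169, 10542, 20401 and 17368 in TA_6h. Both muscles thus carried strong skeletal muscle signal. Ckm, the muscle creatine kinase, read 7863, 9958, 7404 and 12333 in EOM and 1387, 821, 581 and 56.5 in TA_6h, so that TA_6h replicate 4 lay at the floor on both arrays. The replicate 3 value joined array 3a, at the floor, with array 3b at 5979. Ckm was called higher at 4.39, and at 3.40 without TA_6h replicate 4. It is not among the genes above the floor on all 12 arrays. Acta1, skeletal alpha-actin, read 15469, 19931, 13880.1 and 19177 in EOM and 10469.6, 894, 13800.5 and 3311 in TA_6h. Its pairs of arrays disagreed, reading 8409 and 94.9 in TA_6h replicate 2, and 713 and 15386 in replicate 4. The low and scattered TA_6h readings of these abundant muscle transcripts stood beside high readings of Tnnt3 and Des on the same arrays.

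The comparison asks how the transcript content of extraocular muscle differs from that of TA muscle. Of the 7640 probe sets tested, 1671 (21.9%) were called higher and 1935 (25.3%) lower in EOM. Above the floor on all 12 arrays lay 4148 of these probe sets, with 1147 (27.7%) called higher and 770 (18.6%) lower. With each gene represented by its brightest probe set, 971 of 4317 genes (22.5%) were called higher and 1093 (25.3%) lower. Above the floor on all 12 arrays, 690 of 2582 genes (26.7%) were called higher and 510 (19.8%) lower, and the median log2 difference over all 2582 was 0.10. These 2 shares are the background for the gene lists below. In 649 genes (25.1%) the call was higher with every EOM sample above every TA_6h sample, and in 464 (18.0%) it was lower with every EOM sample below. By size, 418 genes were called more than 2-fold higher and 262 more than 2-fold lower, 96 and 40 more than 4-fold, and 16 and 8 more than 8-fold.

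**Figure D1:**
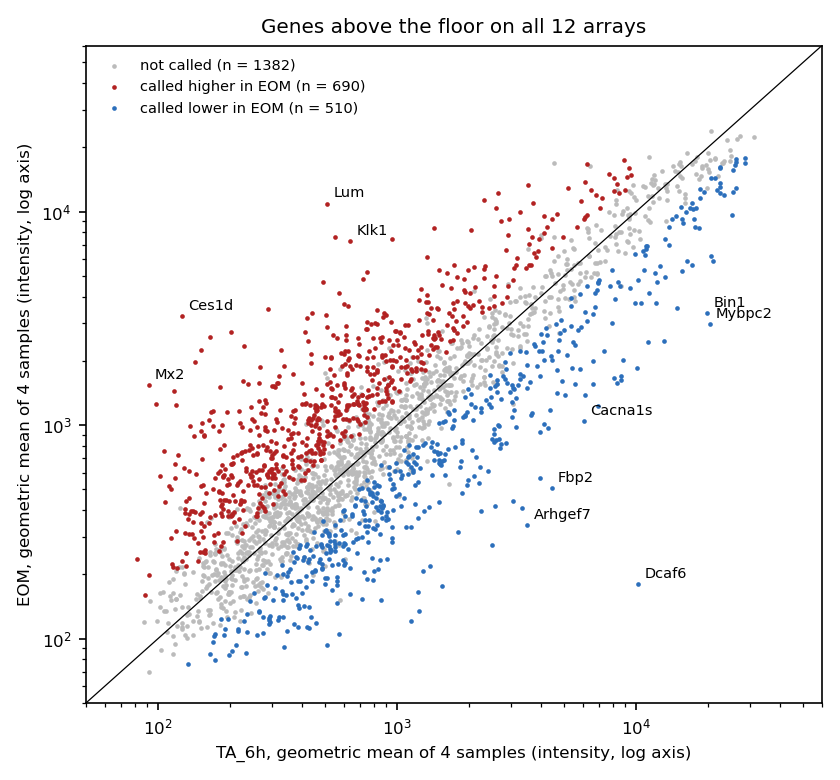
Geometric mean intensity of 4 EOM samples (vertical, log axis) against that of 4 TA_6h samples (horizontal, log axis) for the 2582 genes above the floor on all 12 arrays, with the diagonal marking equal values. Red points are the 690 genes called higher and blue points the 510 called lower in EOM, and the brightest genes lie mostly under the diagonal.

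Brightness moved with the direction of the calls. Among the 100 brightest of the 2582 genes, 4 were called higher and 34 lower, with a median log2 difference of -0.31. In the quartile of genes with mean intensities of 713 to 1691, 33.6% were called higher and 16.4% lower, with a median of 0.27. After quantile normalization, which gives every array the same distribution, the 100 brightest genes gave 19 higher and 22 lower calls with a median of 0.048. Over all 2582 genes that setting gave 629 higher and 574 lower calls. Counts for lists with most of their members in the brightest quartile are therefore given with both settings below, and the part of brightness in those results was not tested.

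The named genes of largest difference are the 20 highest and 20 lowest among genes called, above the floor on all 12 arrays and with no overlap of the samples. Enzymes and a metal-binding protein are given first. Ces1d, a carboxylesterase that splits esters and lipids, read 4596, 2745, 3361 and 2644 in EOM and 94.9, 228, 110.3 and 107 in TA_6h (log2 difference 4.69 ± 0.30, limma adjusted p = 1.9e-06). Even the lowest EOM sample lay far above the highest TA_6h sample. Hsd11b1, the reductase that regenerates active glucocorticoid inside cells, read 7708, 7119, 7457 and 8237 in EOM and 690.2, 505, 476 and 562 in TA_6h (log2 difference 3.79 ± 0.16, limma adjusted p = 2.1e-07). Cyp1b1, a cytochrome of retinoid and steroid oxidation, read 1191, 1333, 1306 and 1129 in EOM and 126, 158, 83.9 and 119 in TA_6h (log2 difference 3.38 ± 0.20, limma adjusted p = 1.3e-06). Of its 3 other tested probe sets 1 was called higher (2.72), while those at -0.06 and -0.59 were not called. Mgst1, a membrane-bound glutathione transferase, read 1764, 6589.6, 1068 and 1217 in EOM and 186, 147, 210.3 and 72.2 in TA_6h (log2 difference 3.79 ± 0.56, limma adjusted p = 0.0004), with EOM replicate 2 far above the other EOM samples. Mt3, a metallothionein, read 762, 1675, 1223 and 1570.1 in EOM and 79.1, 66.9, 139.7 and 128 in TA_6h (log2 difference 3.67 ± 0.43, limma adjusted p = 9.2e-05). Rfk, the kinase that makes the flavin cofactor FMN from riboflavin, read 1289, 1800.2, 1352 and 1409 in EOM and 111, 125, 91.7 and 144 in TA_6h (log2 difference 3.64 ± 0.19, limma adjusted p = 5.4e-07).

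Matrix and secreted proteins made up the next group of the 20. Lum, the collagen-binding proteoglycan lumican, read 12825, 9743, 10178 and 11152 in EOM and 813, 509, 528 and 310.0 in TA_6h (log2 difference 4.42 ± 0.26, limma adjusted p = 1.4e-06), the brightest EOM level of the set. Apod, the lipid-binding apolipoprotein D, read 3099, 2209, 1981 and 3243 in EOM and 189, 242, 146 and 113 in TA_6h (log2 difference 3.96 ± 0.27, limma adjusted p = 2.8e-06). Klk1, the tissue kallikrein that releases kinins, read 6859, 6589, 7955 and 7766 in EOM and 452, 674, 619 and 882 in TA_6h (log2 difference 3.51 ± 0.21, limma adjusted p = 1.4e-06). C1s, a protease of the first complement component, read 6137, 3746, 5583 and 3733 in EOM and 536, 424, 533 and 475 in TA_6h, and Rnase4, a secreted ribonuclease, read 3008, 2031, 2180.1 and 2331 in EOM and 357, 379, 123 and 165 in TA_6h. Anxa1, the calcium-dependent phospholipid-binding annexin with anti-inflammatory action, read 4341, 2670.1, 3777 and 3471 in EOM and 493, 278, 221 and 227 in TA_6h. No EOM sample of these genes overlapped a TA_6h sample, which the choice of genes required. The log2 differences were 3.25 ± 0.21 for C1s, 3.36 ± 0.36 for Rnase4 and 3.61 ± 0.27 for Anxa1 (limma adjusted p of 2e-06, 4.7e-05 and 5.8e-06).

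Lipid and membrane genes followed. Cidea, a lipid droplet protein known from brown fat, read 1945, 3402, 1828 and 2121 in EOM and 172, 109, 182 and 151 in TA_6h (log2 difference 3.90 ± 0.25, limma adjusted p = 1.9e-06). Scd2, a stearoyl-CoA desaturase, read 3049, 2499.6, 2648 and 2703 in EOM and 201, 261, 207 and 155 in TA_6h (log2 difference 3.75 ± 0.20, limma adjusted p = 6.7e-07). Of its 5 other tested probe sets 2 were called higher and 1 lower (-1.98), so its direction depends on the probe set. Asah1, the acid ceramidase of lysosomes, read 1102, 814, 1009.7 and 1073 in EOM and 137, 145, 140.4 and 125 in TA_6h, a steady step of 2.86 on the log2 scale. Pmp22, a myelin protein of Schwann cells, read 9656, 5833, 8066 and 6693 in EOM and 1285, 1318, 585 and 832 in TA_6h. Another probe set of Pmp22, also above the floor on all 12 arrays, was not called (0.07). Cd9, a tetraspanin, read 3451, 3499.6, 2487 and 3326 in EOM and 620.4, 531, 373 and 254 in TA_6h, and Itgb4, the integrin beta chain of epithelial and nerve-sheath basement membrane contacts, read 1494, 1326, 1613 and 1599 in EOM and 90.9, 217, 179.9 and 308 in TA_6h. Ndrg4, of the NDRG family expressed in brain and heart, read 3032, 3360.2, 2981 and 4179 in EOM and 439.9, 453, 429 and 435 in TA_6h. The TA_6h samples of Ndrg4 and Asah1 lay within narrow bands while the EOM samples lay clear above them. Mx2, the remaining member, belongs to the interferon genes described below.

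**Figure D2:**
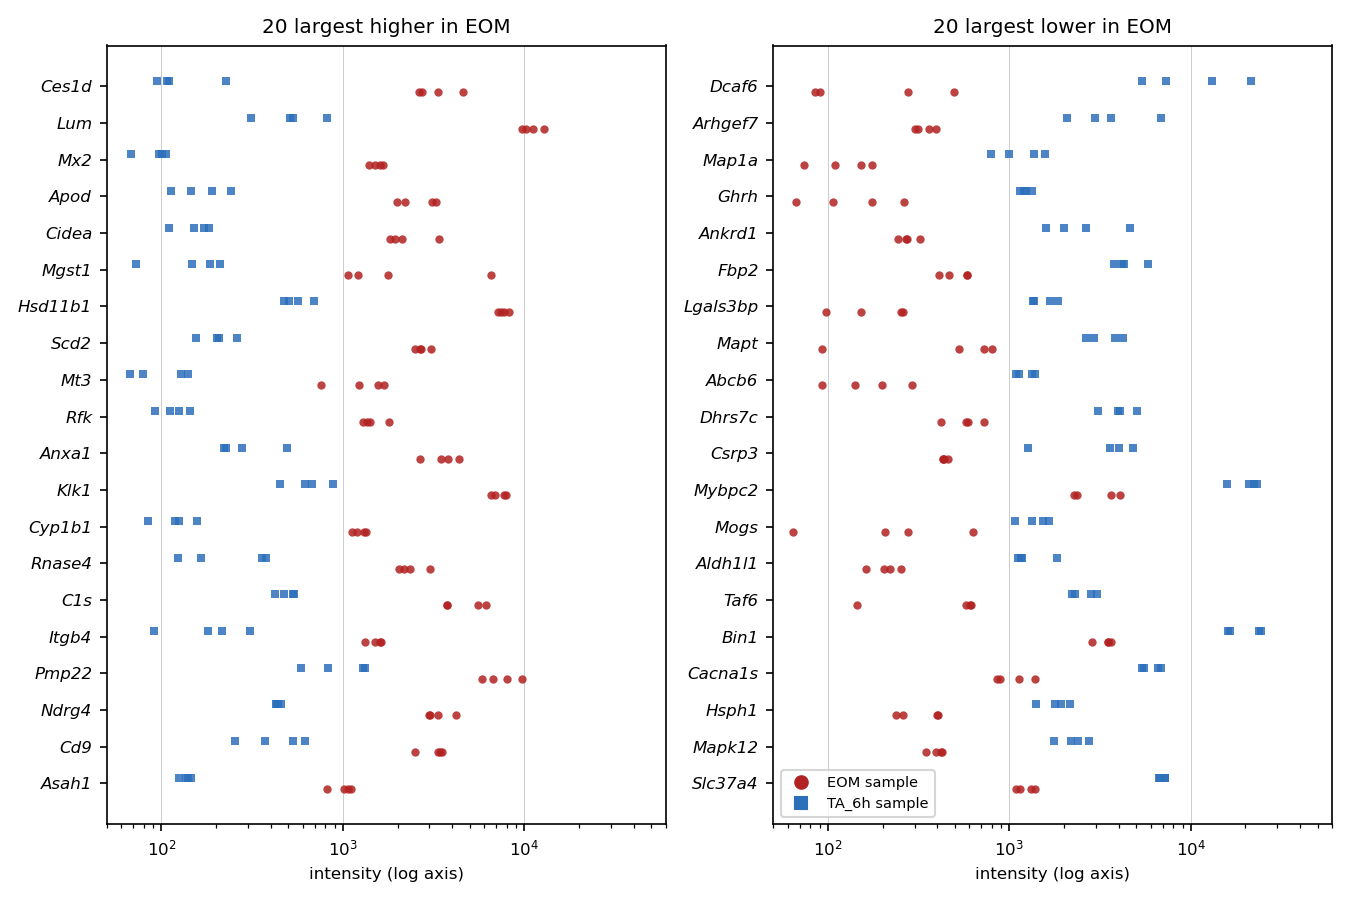
Intensity (log axis) of each of the 4 EOM samples (red circles) and 4 TA_6h samples (blue squares) for the 20 genes of largest higher (left) and 20 of largest lower (right) difference in EOM. The samples of the groups do not overlap for any of these genes, which the choice of genes required, and Mgst1, Mapt, Mogs and Taf6 show a wide spread among the EOM samples.

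Among the 20 genes of largest lower difference, several belong to the membrane triad where the nerve impulse triggers calcium release. Cacna1s, the voltage sensor of the transverse tubule, read 1131, 888, 1391 and 851 in EOM and 5398, 5524, 6838 and 6569.9 in TA_6h (log2 difference -2.53 ± 0.19, limma adjusted p = 6.7e-06). Bin1, which shapes transverse tubules, read 3486, 3486, 3651 and 2859 in EOM and 16453, 16086, 23848 and 24390.1 in TA_6h (log2 difference -2.56 ± 0.21, limma adjusted p = 8.9e-06). Dhrs7c, a dehydrogenase of the sarcoplasmic reticulum, read 722, 578, 593 and 421 in EOM and 3065, 3992, 4047 and 5039 in TA_6h (log2 difference -2.81 ± 0.22, limma adjusted p = 8.7e-06). Jph2, the junctophilin that tethers tubule to reticulum, and Asph, whose locus encodes the reticulum protein junctin, were named after their values were seen. Jph2 read 2328, 2317, 2765 and 2374 in EOM and 8632, 9399.6, 12761 and 15539 in TA_6h (log2 difference -2.21 ± 0.21, limma adjusted p = 2.4e-05). Asph read 1632, 1490.0, 1661 and 1867 in EOM and 8678, 7804, 8342 and 7613 in TA_6h (log2 difference -2.29 ± 0.14, limma adjusted p = 1.8e-06).

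Load-bearing and stretch-responsive proteins of the sarcomere formed a second group of lower genes. Ankrd1, a titin-bound ankyrin-repeat protein of the stretch response, read 244, 269, 271 and 320.3 in EOM and 4644, 1587, 2639 and 2003 in TA_6h (log2 difference -3.18 ± 0.34, limma adjusted p = 4.7e-05). Its pair of arrays in TA_6h replicate 1 read 907 and 23782, and without array 1b the log2 difference was -2.60. Csrp3, the muscle LIM protein of the Z-disc, read 431, 459.7, 433 and 438 in EOM and 4796, 1263, 4005 and 3579 in TA_6h (log2 difference -2.79 ± 0.38, limma adjusted p = 0.00024). The EOM samples of Csrp3 lay within 431 to 460. In TA_6h replicate 1 its arrays read 1584 and 14523, and without array 1b the log2 difference was -2.39. Mybpc2, the fast myosin-binding protein C, read 3625, 2359, 4063 and 2264 in EOM and 21043, 15924, 23137 and 22186 in TA_6h (log2 difference -2.77 ± 0.23, limma adjusted p = 1.1e-05). Dcaf6, a ligase receptor known to bind calmodulin at the Z-disc, had the largest difference of all at 495, 90.1, 277 and 84.7 in EOM and 5387, 7252, 13030.3 and 21512 in TA_6h (log2 difference -5.83 ± 0.61, limma adjusted p = 4.7e-05). Its values were scattered in both muscles, and the choice of genes required that they not overlap.

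Metabolic, signalling and other genes completed the lower set. Fbp2, the muscle fructose bisphosphatase that supports glycogen synthesis from lactate, read 408, 586, 586 and 467 in EOM and 3759, 4155, 5775 and 4290.1 in TA_6h (log2 difference -3.13 ± 0.20, limma adjusted p = 1.9e-06). Slc37a4, which carries glucose 6-phosphate into the endoplasmic reticulum, read 1147, 1091, 1321 and 1376 in EOM and 6772, 7225, 7188 and 6673 in TA_6h (log2 difference -2.50 ± 0.14, limma adjusted p = 1.1e-06), with narrow bands in both muscles. Mapk12, the stress-activated MAP kinase most abundant in muscle, read 426, 392, 419 and 349 in EOM and 2187, 1769.5, 2379 and 2743 in TA_6h, and Hsph1, a large cytosolic heat shock protein, read 260.4, 404, 238 and 397 in EOM and 1781, 1409, 1928 and 2159 in TA_6h. Arhgef7, an exchange factor for Rac and Cdc42, read 302, 312, 394 and 361 in EOM and 2067, 2969, 3626 and 6871 in TA_6h. Their log2 differences were -2.50 ± 0.19, -2.51 ± 0.23 and -3.37 ± 0.32 (limma adjusted p of 6.1e-06, 1.7e-05 and 2.6e-05). Map1a (-3.24) and Mapt (-3.03), which bind microtubules in neurons, Ghrh (-3.20), the hypothalamic hormone that releases growth hormone, Abcb6 (-2.89), a porphyrin transporter, Aldh1l1 (-2.64), a folate enzyme, Mogs (-2.65), a glucosidase of protein glycosylation, and Taf6 (-2.61), a subunit of TFIID, were called lower too. The other probe sets of Ghrh were not called (-0.106, -0.51, -0.105 and 0.35), so its call rests on its brightest probe set. Mapt read 725, 803, 526 and 92.5 and Mogs 277, 633, 206 and 64 in the EOM samples, and without EOM replicate 4 their log2 differences were -2.31 and -2.06, both still called. Lgals3bp, a secreted galectin-binding glycoprotein, gave -3.13 through its brightest probe set and 1.46 through another, both called, so its direction depends on the probe set.

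The 30 gene lists hold 1609 genes, of which 1099 were tested. Their shares of called members are set against 26.7% higher and 19.8% lower over all 2582 genes above the floor on all 12 arrays. The lists with the largest shares of higher calls were the interferon and antigen presentation genes (70.8% of 24), immune and macrophage markers (55.6% of 27), extracellular matrix and fibroblast markers (53.7% of 41), adipocyte and lipid storage markers (10 of 20) and nerve and Schwann cell markers (47.8% of 23). The lists with the largest shares of lower calls were the skeletal muscle identity genes (15 of 25), red blood cell markers (3 of 6), glucocorticoid and stress responsive genes (42.9% of 14), glycogen and glucose handling genes (41.2% of 34) and immediate early and clock genes (10 of 25). Between these ends, the lists for nitric oxide signalling and calcium handling lay near the background for higher calls. Members named below beyond the largest few of each list were chosen after their values were seen, and the same holds for every gene said to be not called.

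**Figure D3:**
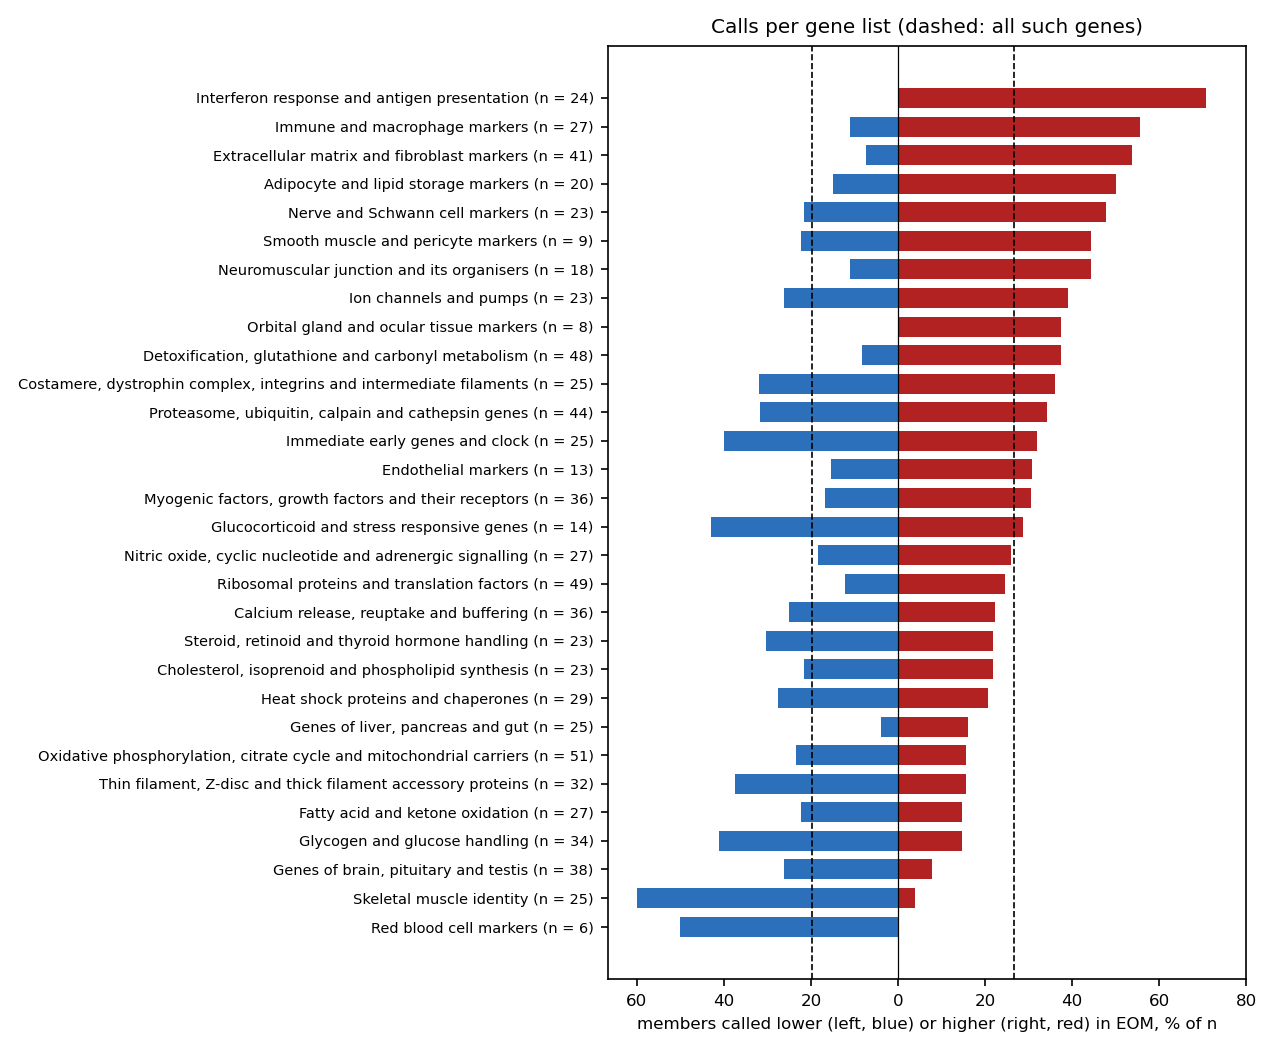
Share of the members of each gene list called higher (red, to the right) or lower (blue, to the left) in EOM, in percent of the n members above the floor on all 12 arrays. Dashed lines mark the shares over all 2582 such genes, 26.7% higher and 19.8% lower, and the interferon and antigen presentation list reaches 70.8% higher with 0 lower calls.

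Interferons act on cells through receptors that switch on antiviral genes and the machinery that cuts proteins and displays the peptides on surface MHC molecules. In the interferon response and antigen presentation list, limma called 17 higher and 0 lower of the 24 members above the floor on all 12 arrays, with a median log2 difference of 1.00. The count of 0 lower calls in limma was also 0 at an unadjusted p under 0.05. Of the other 4 tested members, limma called 1 higher and 1 lower. Against TA_6h replicates 1 and 2 alone 17 of the 24 were called higher, and against replicates 3 and 4 alone 15. After quantile normalization the calls were 16 higher and 1 lower, the lower one being the class II processing gene RT1-DMa (-0.53).

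Antiviral and regulatory members are given first. Mx2, a dynamin-like antiviral GTPase, read 1663, 1497, 1394 and 1604 in EOM and 100.1, 106, 67.7 and 97.5 in TA_6h (log2 difference 4.07 ± 0.20, limma adjusted p = 4.8e-07). Mx1, its relative, read 1081, 883, 926 and 1162 in EOM and 234, 113, 139 and 328 in TA_6h (log2 difference 2.43 ± 0.31, limma adjusted p = 0.00017). Irf7, the transcription factor that amplifies the interferon response, read 1512, 489, 1689 and 1785 in EOM and 364, 179.8, 307 and 282 in TA_6h (log2 difference 2.16 ± 0.44, limma adjusted p = 0.0027), with EOM replicate 2 below the other EOM samples and above every TA_6h sample. In TA_6h replicate 1 the arrays of Irf7 read 159 and 835, the second above EOM replicate 2. Ifitm3, a membrane protein that blocks virus entry, read 10524, 7751, 8478 and 9579 in EOM and 3979, 2875, 2224 and 2145 in TA_6h (log2 difference 1.73 ± 0.22, limma adjusted p = 0.00018). The sensor gene Oas1a differed less, at 1892, 2374, 2548 and 2559.8 in EOM and 1444, 1469, 1308 and 1701 in TA_6h (log2 difference 0.66 ± 0.16, limma adjusted p = 0.0076). Stat2, a signal transducer of the interferon receptor, read 372, 376, 382 and 378 in EOM and 252, 253, 258 and 276 in TA_6h (log2 difference 0.54 ± 0.16, limma adjusted p = 0.021). Stat2 was not called without EOM replicate 3 (0.53) or against TA_6h replicates 3 and 4 alone (0.50), and with the replicate number as a block its call was lost as well (0.54). Irf1 (0.04) and Rsad2 (0.00018) were not called, and another probe set of Irf1, not above the floor on all 12 arrays, was called lower (-0.81, limma adjusted p = 0.020).

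Antigen processing and display genes were higher at several steps. Psmb9, an interferon-induced catalytic subunit of the immunoproteasome, read 662, 761, 903 and 661 in EOM and 197, 197, 323 and 198 in TA_6h (log2 difference 1.73 ± 0.22, limma adjusted p = 0.00016). Psme1, a subunit of the proteasome activator, read 11459.5, 9914, 11859 and 10985 in EOM and 2436, 3218, 4813 and 4990.2 in TA_6h (log2 difference 1.57 ± 0.24, limma adjusted p = 0.00052). Its partner Psme2 read 1431, 1340.3, 972 and 964 in EOM and 383, 703, 612 and 608 in TA_6h (log2 difference 1.04 ± 0.23, limma adjusted p = 0.0043). Tap1, a peptide transporter subunit, read 1535, 1563, 1297 and 1489 in EOM and 639.8, 570.1, 745 and 616 in TA_6h (log2 difference 1.20 ± 0.15, limma adjusted p = 0.00013). B2m, the light chain of MHC class I, read 12826, 7928, 10857 and 8916 in EOM and 3788, 3177, 3476 and 2708 in TA_6h (log2 difference 1.61 ± 0.25, limma adjusted p = 0.00053). The other class I transport subunit Tap2 (-0.30) and the immunoproteasome subunit Psmb8 (-0.43) were not called. RT1-S3, a class I heavy chain, read 2146, 1632, 1911 and 1907 in EOM and 425, 265, 404 and 280.2 in TA_6h (log2 difference 2.49 ± 0.22, limma adjusted p = 1.6e-05). Among class II genes, RT1-Db1 read 3003, 2695, 3313 and 2944 in EOM and 851, 496, 955 and 907 in TA_6h (log2 difference 1.94 ± 0.22, limma adjusted p = 8.3e-05). RT1-Ba (1.16) and RT1-Bb (0.95) were called higher as well, though another probe set of RT1-Ba was called lower (-1.28) and neither gene was called against TA_6h replicates 1 and 2 alone (0.67 and 0.70). The class II invariant chain Cd74 read 4559, 2706, 4757 and 3271 in EOM and 1479.7, 1083, 2758 and 3059 in TA_6h (log2 difference 0.96 ± 0.34, limma adjusted p = 0.043), and its groups overlapped. Cd74 was not called without EOM replicate 1 (0.86), without EOM replicate 3 (0.84), without EOM replicate 4 (1.02), without TA_6h replicate 1 (0.83), without TA_6h replicate 2 (0.68), with quantile normalization (0.82) or against TA_6h replicates 3 and 4 alone (0.36). RT1 genes are a family of near-identical copies, so which copy a probe set reads is uncertain.

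Promoter sequence for this list was available from RefSeq for 23 of the 24 genes, matched by gene number. The 250 bases before the start site were searched on both strands for GAAA, any 2 bases and GAAA again, the core of the element bound by interferon regulatory factors. It was present in 9 of the 23 promoters (39.1%), and in 1140 of all 33469 promoters in the table (3.41%). Of the 9 genes with a match, B2m, Ifitm3, Irf7, Oas1a, Psme2, RT1-S3 and Tap1 were called higher, and Rsad2 and Tap2 were not called. Over the whole list 17 of the 24 members (70.8%) were called higher, and a relation between match and call was not tested. For Irf7, Oas1a, Psme2 and Rsad2 the promoter was not marked as lying upstream of the annotated gene. No match shared bases with the other motif searched below. The stretches around the match in 4 of the called genes are printed to show the spacing of the paired element. They run 5′ to 3′ on the strand of the gene, with the matched letters in capitals (TTTC marks a match on the other strand). Positions are B2m (GRCr8 chr3:129549145-129549224, plus strand), Ifitm3 (GRCr8 chr1:205541759-205541837, minus strand), RT1-S3 (GRCr8 chr20:2675381-2675460, plus strand) and Tap1 (GRCr8 chr20:4668620-4668699, minus strand).
B2m: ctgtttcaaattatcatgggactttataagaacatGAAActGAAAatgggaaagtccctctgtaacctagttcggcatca
Ifitm3: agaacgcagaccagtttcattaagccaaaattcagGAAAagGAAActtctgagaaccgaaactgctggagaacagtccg
RT1-S3: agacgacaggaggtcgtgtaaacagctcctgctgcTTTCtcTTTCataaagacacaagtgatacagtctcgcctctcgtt
Tap1: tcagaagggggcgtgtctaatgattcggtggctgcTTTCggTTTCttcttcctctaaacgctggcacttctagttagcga
A match describes these letters and does not show a bound site.

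Several lists of markers for other cell types that a muscle sample can hold had more higher than lower calls. In the immune and macrophage list limma called 15 higher and 3 lower of the 27 members above the floor on all 12 arrays, with a median log2 difference of 0.78. Cd53, a leukocyte tetraspanin, read 837, 679, 753 and 770.4 in EOM and 138, 91.8, 92.6 and 106 in TA_6h (log2 difference 2.84 ± 0.18, limma adjusted p = 1.9e-06). Lyz2, macrophage lysozyme, read 9565, 6613, 8980.4 and 8656 in EOM and 1309, 1106, 1929 and 1502 in TA_6h (log2 difference 2.55 ± 0.21, limma adjusted p = 1.1e-05). Aif1, a macrophage actin-binding protein, read 745, 615, 719 and 841 in EOM and 127, 100.3, 127 and 132 in TA_6h (log2 difference 2.58 ± 0.18, limma adjusted p = 3.8e-06), although of its other probe sets 1 was called higher and 1 lower (-1.58). Cd48 read 2119.7, 1341, 1779 and 1626 in EOM and 546, 511, 205 and 184 in TA_6h. Ptprc, the common leukocyte antigen, was not called (0.38 ± 0.20, limma adjusted p = 0.13), whereas 1 of its 2 other probe sets was called higher (0.75), and the complement subunit C1qc (-1.74) and the cytokine Il1b (-0.92) were called lower. The summed intensity of the 53 tested immune markers ran from 49948 to 58201 in EOM and from 33329 to 36624 in TA_6h, and its part in the interferon result was not tested. In such tissue samples more cells of a type and more RNA per cell cannot be told apart.

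In the extracellular matrix and fibroblast list limma called 22 higher and 3 lower of the 41 members above the floor on all 12 arrays, with a median log2 difference of 0.82. Beside Lum, the small proteoglycan Omd (osteomodulin) read 1948, 1364, 1811 and 1398 in EOM and 184, 259.5, 182 and 310.1 in TA_6h (log2 difference 2.82 ± 0.22, limma adjusted p = 7.3e-06), and Fbln5, an organiser of elastic fibres, read 2944, 2589, 2904 and 2558 in EOM and 383, 575, 336 and 395 in TA_6h (log2 difference 2.73 ± 0.19, limma adjusted p = 3.2e-06). Enzymes and inhibitors of matrix turnover were called higher, among them Mmp2 (1.45), Mmp3 (1.30), Mmp14 (1.02) and Timp2 (1.38), as was the adhesion protein Postn (2.29). The main fibrillar collagens were not called. Col1a1 read 22979.5, 14099, 20149.5 and 19171 in EOM and 19101, 14311, 18112 and 32178 in TA_6h (log2 difference -0.09 ± 0.26, limma adjusted p = 0.8) and Col3a1 had 0.60 ± 0.47 with limma adjusted p = 0.31. Dcn, the proteoglycan decorin, was called higher (0.83). The summed intensity of the list ran from 142475 to 173633 in EOM and from 106758 to 136155 in TA_6h.

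Nerve and Schwann cell markers gave 23 members, of which 11 were called higher and 5 lower (median log2 difference 0.32). Higher members included Mal (1.68), Prx (1.65) and Nrcam (2.30). Nrcam read 390, 1853, 424 and 526 in EOM, and without EOM replicate 2 its log2 difference was 1.78, still called. Mbp, the myelin basic protein, read 1239, 982, 882 and 803 in EOM and 112, 125, 114 and 104 in TA_6h. It was called higher (3.09) but is not among the 23, with 1 TA_6h array at the floor. Lower members included Map1a, Mapt and Vamp1 (-1.42). The summed intensity of the 37 tested markers ran from 53825 to 60025 in EOM and from 39319.9 to 61603 in TA_6h, so the groups overlapped. At the nerve-muscle contact itself, the list of junction genes gave 18 members, of which 8 were called higher and 2 lower (median log2 difference 0.37). Chrna1, the acetylcholine receptor alpha subunit, read 2563, 2709, 2323 and 2459.8 in EOM and 818, 848, 502 and 399.9 in TA_6h (log2 difference 2.04 ± 0.27, limma adjusted p = 0.0002), and Chrne, the adult epsilon subunit, read 1319, 1116, 1202 and 1259 in EOM and 650.3, 569.9, 426 and 337 in TA_6h (log2 difference 1.35 ± 0.22, limma adjusted p = 0.00072). Ptn, the growth factor pleiotrophin, read 1405, 929.8, 1169 and 1123 in EOM and 279, 208, 274 and 331 in TA_6h (log2 difference 2.09 ± 0.24, limma adjusted p = 8.6e-05). Ntf4, a neurotrophin, was called higher (2.39) through its brightest probe set and lower (-1.55) through another.

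Adipocyte and lipid storage genes gave 20 members, of which 10 were called higher and 3 lower (median log2 difference 0.95). Cidea, Scd2, Apod and the desaturase gene Scd, at 3863, 1393, 2477 and 1943 in EOM and 298, 862, 211 and 216 in TA_6h (log2 difference 2.78 ± 0.47, limma adjusted p = 0.00091), were the largest. Gpam, an enzyme of triglyceride synthesis, and the adipocyte marker Cfd were called higher (2.51 and 1.09). By contrast, Lep, the adipocyte hormone leptin, was called lower (-0.56 ± 0.16). Plin1, the lipid droplet protein of fat cells, was not called and was at the floor on all 4 EOM arrays. Lep was not called against TA_6h replicates 3 and 4 alone (-0.42). Cebpb, a transcription factor of fat cell formation and inflammation, read 946, 1173, 1196 and 784 in EOM and 4295, 4357, 4129 and 3807 in TA_6h (log2 difference -2.04 ± 0.18, limma adjusted p = 1.6e-05). The summed intensity ran from 32637 to 53281 in EOM and from 27399 to 33832 in TA_6h, with the highest EOM sum in replicate 2. Smooth muscle and pericyte genes gave 9 members, of which 4 were called higher and 2 lower (median log2 difference 0.43), and endothelial genes 13 members, of which 4 were called higher and 2 lower (median log2 difference -0.03). Orbital gland and ocular tissue genes gave 8 members, of which 3 were called higher and 0 lower (median log2 difference 0.24), led by Klk1 (0 lower in limma at an unadjusted p under 0.05 as well), by Rom1, a photoreceptor disc protein, at 969, 489, 1306 and 992 in EOM and 169.8, 161, 169 and 129.5 in TA_6h (log2 difference 2.50 ± 0.30, limma adjusted p = 0.00011), and by Pip, a secretory gland protein, at 459.7, 740.4, 427 and 738 in EOM and 230.1, 138, 187 and 297 in TA_6h. Of the other 11 tested members of the orbital gland and ocular list, 1 was called higher and 4 lower. The lens crystallins Cryaa (0.20) and Crybb2 (0.17) and the gland water channel Aqp5 (0.08) were not called, although both other probe sets of Crybb2 were called lower (-1.65 and -2.01). Myoc, myocilin, known from the eye's drainage tissue and named after its values were seen, read 3783, 3988, 4607 and 4276 in EOM and 736, 656, 475 and 475 in TA_6h (log2 difference 2.85 ± 0.24, limma adjusted p = 1.2e-05).

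Growth factor genes included ligands and binding proteins with large differences. Igf1, the growth factor that promotes muscle mass, read 6455, 4631, 5530.1 and 4575 in EOM and 984, 736, 631 and 687 in TA_6h (log2 difference 2.81 ± 0.19, limma adjusted p = 3.2e-06), though of 4 other probe sets 1 was called higher (1.57) and 1 lower (-2.42). Igfbp6, an IGF-binding protein, read 6600.3, 5149, 5840.2 and 5015 in EOM and 1802, 1555, 1428 and 2263 in TA_6h (log2 difference 1.70 ± 0.20, limma adjusted p = 9.2e-05), and Id2, an inhibitor of myogenic factors, read 1071, 893, 955 and 895 in EOM and 354, 314, 192 and 164 in TA_6h. The list gave 36 members, of which 11 were called higher and 6 lower (median log2 difference 0.10). Fgf7 (1.60) and the receptor Pdgfra (1.64) were called higher. Myod1 (-1.31), the myogenic determination factor, Hgf (-1.24) and Notch1, at 62.9, 267, 269.8 and 278 in EOM and 616, 624, 1001 and 1030.4 in TA_6h, were called lower, and Mstn, the inhibitor myostatin, was not called (0.37). Notch1 was not called against TA_6h replicates 1 and 2 alone (-1.72).

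The skeletal muscle identity list went the other way: limma called 1 higher and 15 lower of the 25 members above the floor on all 12 arrays, with a median log2 difference of -0.65. All 25 lay in the brightest quartile of genes, in which 22.3% were called higher and 26.3% lower, and after quantile normalization the calls were 5 higher and 13 lower. Ampd1, the adenylate deaminase of fast fibres, read 1163, 1426, 1765 and 2146 in EOM and 10535, 10186, 7124 and 6377 in TA_6h (log2 difference -2.40 ± 0.26, limma adjusted p = 5.6e-05). Ldb3, the Z-disc protein ZASP, read 5387, 5906, 7459 and 6144 in EOM and 16863, 16327, 24990.1 and 26364 in TA_6h (log2 difference -1.74 ± 0.21, limma adjusted p = 0.00011), and Actn2, an alpha-actinin that anchors thin filaments, read 4336, 4274, 4898 and 5396 in EOM and 12914, 11495, 12067 and 12393 in TA_6h (log2 difference -1.38 ± 0.16, limma adjusted p = 0.0001). Flnc, the filamin of the Z-disc and sarcolemma, read 1861, 1431, 2179 and 2036 in EOM and 11000.4, 7041, 10015 and 13461 in TA_6h (log2 difference -2.45 ± 0.22, limma adjusted p = 1.9e-05), and -2.26 without array 1b of TA_6h. Tnnt3 and Atp2a1, the fast calcium pump, were not called (0.01 and -0.05). The single higher member among the 25 was Tpm2 (1.09). The summed intensity of the 27 tested members ran from 247670.0 to 276812 in EOM and from 294056 to 461491 in TA_6h, with every EOM sample under every TA_6h sample. Accessory proteins of the thin filament, Z-disc and thick filament gave 32 members, of which 5 were called higher and 12 lower (median log2 difference -0.14), and 8 higher and 13 lower after quantile normalization. Costamere and filament-anchoring genes gave 25 members, of which 9 were called higher and 8 lower (median log2 difference 0.04), and 7 higher and 11 lower after quantile normalization. Red blood cell genes gave 6 members, of which 0 were called higher and 3 lower (median log2 difference -0.51), and the count of 0 higher calls in limma was also 0 at an unadjusted p under 0.05.

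Glycogen and glucose genes gave 34 members, of which 5 were called higher and 14 lower (median log2 difference -0.36), and 6 higher and 14 lower after quantile normalization. Slc16a3, the lactate exporter of glycolytic fibres, read 1579, 1629.6, 1813 and 1817 in EOM and 5170.0, 7340.4, 12012 and 12229 in TA_6h (log2 difference -2.34 ± 0.27, limma adjusted p = 8.8e-05), and Gaa, the lysosomal enzyme that breaks down glycogen, read 926, 1320.0, 1728 and 1707 in EOM and 4561, 5153, 6651 and 8906 in TA_6h (log2 difference -2.15 ± 0.27, limma adjusted p = 0.00013). Pgm1 (-1.60), Gsk3b (-1.94) and the insulin-responsive transporter Slc2a4 (-1.10) were called lower. In fatty acid oxidation, Acat1, the mitochondrial thiolase of ketone use, read 2019.7, 1874, 2109 and 1965 in EOM and 6492, 6281, 7845 and 5879 in TA_6h (log2 difference -1.73 ± 0.15, limma adjusted p = 1.2e-05), Acads read 589, 849.7, 1213 and 807 in EOM and 1891, 1939, 2839 and 3973 in TA_6h, and Cpt1b, which admits fatty acids to muscle mitochondria, read 3589.8, 3742, 4449 and 3949 in EOM and 7861, 8621, 8858 and 7513 in TA_6h (log2 difference -1.06 ± 0.15, limma adjusted p = 0.00028). That list gave 27 members, of which 4 were called higher and 6 lower (median log2 difference 0.16), and 3 higher and 7 lower after quantile normalization. The oxidative phosphorylation list gave 51 members, of which 8 were called higher and 12 lower (median log2 difference -0.10). Of its members 45 lay in the brightest quartile, and after quantile normalization the calls were 9 higher and 7 lower with a median of 0.054, so the balance of calls in this list depends on the scaling. Atp5if1, an inhibitor of the ATP synthase, read 4005, 2873, 3714 and 3000.4 in EOM and 809, 810.2, 885 and 1063 in TA_6h (log2 difference 1.92 ± 0.23, limma adjusted p = 0.00011).

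Excitation and calcium genes were mixed. The calcium list gave 36 members, of which 8 were called higher and 9 lower (median log2 difference -0.04) and the ion channel list 23 members, of which 9 were called higher and 6 lower (median log2 difference 0.30). Cacna2d1, the auxiliary subunit of the voltage sensor, read 3503, 3293, 3601 and 3759 in EOM and 12974, 12217, 14683 and 20994 in TA_6h (log2 difference -2.07 ± 0.21, limma adjusted p = 3.5e-05). Slc8a1 (-1.62), a sodium-calcium exchanger, and the calcineurin subunit Ppp3ca (-1.37) were called lower too. Kcnj11, the pore of the ATP-sensitive potassium channel, read 1173, 1189, 1338 and 1031 in EOM and 2981, 3905, 4728 and 6679 in TA_6h (log2 difference -1.89 ± 0.25, limma adjusted p = 0.00019), and Scn4a, the muscle sodium channel, had -1.68 ± 0.42. Higher members were Rcn2, a reticulum calcium-binding protein (1.82), and Slc4a3, an anion exchanger, at 2309, 1993, 2113 and 2348 in EOM and 549, 651, 524 and 614 in TA_6h (log2 difference 1.91 ± 0.16, limma adjusted p = 1e-05).

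Some protein families held isoforms with opposite calls. The families were picked after their values were seen and carry no test of their own. Eef1a1, the elongation factor of most tissues, read 11624, 10417, 11264 and 12041 in EOM and 3407, 2579.6, 1940.0 and 1655 in TA_6h (log2 difference 2.30 ± 0.23, limma adjusted p = 3.7e-05). Eef1a2, its muscle and brain counterpart, read 10147, 8728, 10315 and 7997 in EOM and 19491, 16527, 14306 and 12580.2 in TA_6h (log2 difference -0.75 ± 0.24, limma adjusted p = 0.026). Of the adenine nucleotide translocases, Slc25a5 read 4479, 5511, 3432 and 4132 in EOM and 1852, 1718, 1030.2 and 776 in TA_6h (log2 difference 1.78 ± 0.29, limma adjusted p = 0.00084) and the heart and muscle form Slc25a4 read 15947, 19997, 15603 and 20384 in EOM and 24126, 22009, 33837 and 36767 in TA_6h (log2 difference -0.68 ± 0.21, limma adjusted p = 0.023). Both lower calls were lost when single samples were left out. Eef1a2 was not called without EOM replicate 2 (-0.72), without EOM replicate 4 (-0.68), without TA_6h replicate 1 (-0.64), without TA_6h replicate 2 (-0.72) or against TA_6h replicates 3 and 4 alone (-0.54). Slc25a4 was not called without EOM replicate 1 (-0.62), without EOM replicate 3 (-0.61), without TA_6h replicate 3 (-0.59), without TA_6h replicate 4 (-0.55), with quantile normalization (-0.21), with scaling to the same median (-0.57) or against TA_6h replicates 1 and 2 alone (-0.37). Among myosin light chains Myl4, the embryonic and atrial form, read 1991, 1771, 1861 and 1896 in EOM and 372, 293, 177 and 269 in TA_6h (log2 difference 2.81 ± 0.25, limma adjusted p = 1.4e-05) and the non-muscle Myl6 had 1.24 ± 0.18, while the fast Myl1 read 12402, 13221, 11527 and 12557 in EOM and 23847, 23192, 31546 and 24243 in TA_6h (log2 difference -1.04 ± 0.15, limma adjusted p = 0.00043) and the slow Myl3 had -1.83 ± 0.24. Other muscle forms did not follow such a division, since Tpm2 was called higher and Tnnt3 was not called. Ckm was called higher too, but only 5 of its TA_6h arrays lay above the floor, so it carries little weight here.

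Single glycolytic genes differed in both directions. Aldoc, the brain aldolase, read 1111, 1160.0, 1233 and 1149.7 in EOM and 227, 193, 169 and 303 in TA_6h (log2 difference 2.42 ± 0.26, limma adjusted p = 5.8e-05). Hk1, the widespread hexokinase, had 1.28 ± 0.19, and Ldhb, the lactate dehydrogenase subunit of oxidative tissue, had 1.17 ± 0.22. Eno3 (-1.02), the muscle enolase, and Pkm (-0.72), a pyruvate kinase, were called lower.

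The chaperone list gave 29 members, of which 6 were called higher and 8 lower (median log2 difference -0.20), and 5 higher and 10 lower after quantile normalization. Its calls split by compartment, a division made after the values were seen. Of 11 chaperones and folding enzymes of the endoplasmic reticulum above the floor on all 12 arrays, 6 were called higher and 0 lower (median log2 difference 0.57). Of the other 18, mostly cytosolic and mitochondrial, 0 were called higher and 8 lower (median -0.55). The counts of 0 in limma remained 0 at an unadjusted p under 0.05. Against TA_6h replicates 1 and 2 alone the counts were 4 higher for the first set and 8 lower for the second, and against replicates 3 and 4 alone 6 and 7. Pdia3, a disulfide isomerase, read 2127, 1928, 1837 and 1891 in EOM and 1001, 746, 413 and 444 in TA_6h (log2 difference 1.67 ± 0.28, limma adjusted p = 0.0008). Ppib, a collagen-folding cyclophilin, read 2674, 3363, 2823 and 2904 in EOM and 1657, 1222, 1005 and 671 in TA_6h (log2 difference 1.44 ± 0.25, limma adjusted p = 0.0012), and Hsp90b1, the reticulum HSP90, read 5409.9, 5710.3, 5147 and 5986 in EOM and 2826, 2689.9, 1748 and 2222 in TA_6h (log2 difference 1.25 ± 0.19, limma adjusted p = 0.00051). Another probe set of Pdia3 was not called (0.28), and another of Ppib was called higher (3.22). For Hsp90b1 a further probe set was called higher (2.165) and another was not called (-0.32). Hspa5, the main reticulum HSP70, was not called (-0.02). Hyou1 (log2 difference 0.83 ± 0.28, limma adjusted p = 0.032) and Pdia4 (log2 difference 0.82 ± 0.25, limma adjusted p = 0.022), a stress-induced chaperone and a disulfide isomerase, were called higher with less support. Hyou1 was not called without EOM replicate 3 (0.66), without EOM replicate 4 (0.85), without TA_6h replicate 3 (0.87), without TA_6h replicate 4 (0.58), with quantile normalization (0.70) or against TA_6h replicates 1 and 2 alone (0.52). Pdia4 was not called without EOM replicate 2 (0.73), without EOM replicate 4 (0.64), without TA_6h replicate 2 (0.68), against TA_6h replicates 1 and 2 alone (0.88) or against TA_6h replicates 3 and 4 alone (0.75).

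On the other side of the split, Hspa1a, the inducible cytosolic HSP70, read 649, 774, 625 and 515 in EOM and 4586, 3081, 1725 and 1018 in TA_6h (log2 difference -1.82 ± 0.41, limma adjusted p = 0.0053). Its arrays in TA_6h replicate 1 read 1501 and 14005, the first below both arrays of replicate 3 (1606 and 1853), and without array 1b the log2 difference was -1.41. Hspb1, a small heat shock protein of the sarcomere, read 5599.6, 5428, 6641 and 5969 in EOM and 13165, 13599.7, 20854 and 18816 in TA_6h (log2 difference -1.47 ± 0.20, limma adjusted p = 0.00029). Hsp90ab1 (-0.79 ± 0.19) and its partner Fkbp4 (-1.22 ± 0.30) were called lower, Fkbp4 not against TA_6h replicates 3 and 4 alone (-0.86). The other probe sets of Hsp90ab1 were not called (-0.57, -0.11 and -0.33). Hspd1, a mitochondrial chaperonin, had -0.57 ± 0.18. Hspd1 was not called without EOM replicate 1 (-0.50), with scaling to the same median (-0.46) or against TA_6h replicates 1 and 2 alone (-0.41).

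**Figure D4:**
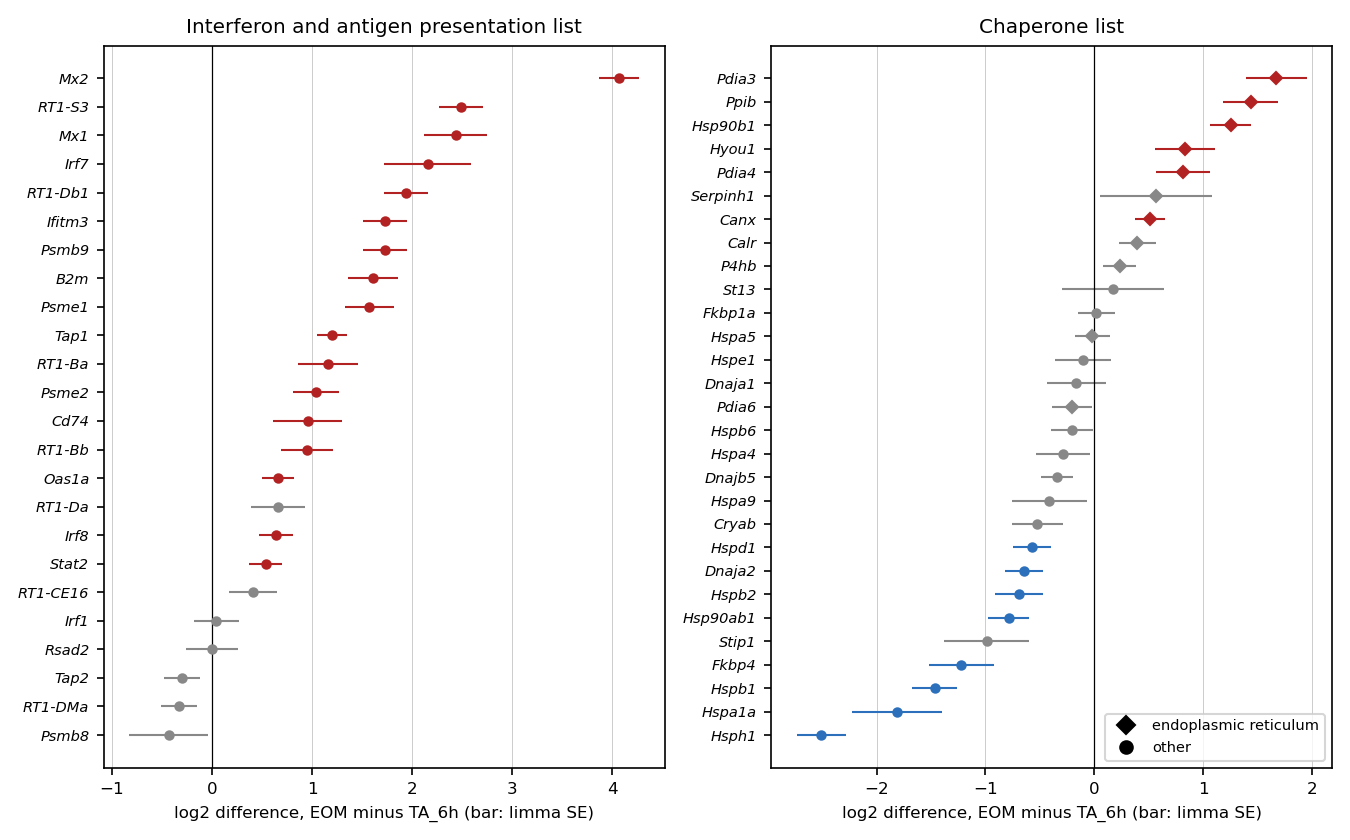
Log2 difference, EOM minus TA_6h, with the limma standard error as a bar, for the 24 interferon and antigen presentation genes (left) and the 29 chaperones (right) above the floor on all 12 arrays. Red points are called higher, blue called lower and grey not called, and diamonds mark the 11 endoplasmic reticulum chaperones, none of which is called lower.

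The RefSeq promoters of 9 of the 11 reticulum chaperones were searched the same way for CCAAT, any 9 bases and CCACG, the endoplasmic reticulum stress element. It was found in 4 (44.4%), Calr, Canx, Hsp90b1 and Hspa5, and in 22 of all 33469 promoters (0.0657%). Canx and Hsp90b1 were called higher and Calr and Hspa5 were not called, and over the set 6 of the 11 were called higher. The stretches of the called genes are shown with the element in capitals: Canx (GRCr8 chr10:35158034-35158107, minus strand) and Hsp90b1 (GRCr8 chr7:23012416-23012504, minus strand).
Canx: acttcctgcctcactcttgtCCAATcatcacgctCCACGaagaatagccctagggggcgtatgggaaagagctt
Hsp90b1: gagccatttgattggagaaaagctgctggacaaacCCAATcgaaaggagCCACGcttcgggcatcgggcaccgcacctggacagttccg
Canx was called by a small difference, at 3444, 4069, 3609 and 3418 in EOM and 2608, 2563, 2427 and 2570.2 in TA_6h (log2 difference 0.51 ± 0.14, limma adjusted p = 0.012).

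Immediate early genes, which switch on within minutes of activity or tissue handling, and clock genes gave 25 members, of which 8 were called higher and 10 lower (median log2 difference -0.19). Lower members included Nr4a1, an orphan receptor induced by contraction, at 2342, 2969, 2639 and 2073 in EOM and 5354, 10592, 22264 and 23259.9 in TA_6h (log2 difference -2.40 ± 0.42, limma adjusted p = 0.0012), Atf3, a stress factor, at 608, 790.0, 589 and 575 in EOM and 3321, 1234, 1527 and 1824 in TA_6h (log2 difference -1.53 ± 0.29, limma adjusted p = 0.0018), and Jun, at 1007, 1112, 987 and 909 in EOM and 5168, 3168, 1793 and 1700.4 in TA_6h (log2 difference -1.41 ± 0.34, limma adjusted p = 0.0075). In TA_6h replicate 1 the arrays of Atf3 read 715 and 15432, the first within the EOM range, and without array 1b its log2 difference was -0.98, still called. Fos read 1452, 874, 279.9 and 1461 in EOM and 4038, 2948, 1871 and 2019 in TA_6h (log2 difference -1.61 ± 0.51, limma adjusted p = 0.025). Fos was not called without TA_6h replicate 1 (-1.40), without TA_6h replicate 2 (-1.55) or against TA_6h replicates 3 and 4 alone (-1.20). Egr1 had -1.39 ± 0.25, while another of its probe sets was called higher (0.64). Klf4 read 1438, 1177, 1271 and 1022 in EOM and 590.1, 637, 299 and 406 in TA_6h (log2 difference 1.40 ± 0.26, limma adjusted p = 0.0016), and Ier3 (1.49), Dusp1 (1.39) and Bhlhe41 (1.39) were called higher. The clock repressor Nr1d1 was called lower (-1.47) and its output gene Dbp was not called (-0.19). EOM carries no collection time in the labels, so muscle and time of collection cannot be told apart for these genes.

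Protein breakdown genes gave 44 members, of which 15 were called higher and 14 lower (median log2 difference -0.12), and 13 higher and 14 lower after quantile normalization. Several lysosomal cysteine proteases were called higher. Ctss, of antigen-presenting cells, read 3452, 2579.7, 3455 and 2801 in EOM and 845, 732, 738 and 687 in TA_6h (log2 difference 2.03 ± 0.19, limma adjusted p = 2.6e-05), Ctsk, which cuts collagen, read 1329, 885, 1421 and 884 in EOM and 388, 329, 304 and 427 in TA_6h (log2 difference 1.62 ± 0.21, limma adjusted p = 0.00019), and Ctsl (1.22), Ctsh (1.09) and Ctsb (1.02) were called as well. Ctsb was not called against TA_6h replicates 1 and 2 alone (0.55), and another probe set of Ctsl was not called (0.23). The aspartic protease Ctsd was lower, at 1774, 4430.1, 1705 and 1830.4 in EOM and 6418, 6010.0, 7864 and 9597 in TA_6h (log2 difference -1.72 ± 0.32, limma adjusted p = 0.0015), with EOM replicate 2 nearest to TA_6h. A further Ctsd probe set, also above the floor on all 12 arrays, was not called (0.22). Subunits of the proteasome cap Psmd4 (-1.23) and Psmc4 (-0.75) were called lower, while the core subunit Psmb3 (1.08) was called higher. Trim63, the atrophy ligase MuRF1, read 1622, 1668, 1497 and 1711 in EOM and 2978, 4441, 14878 and 28367 in TA_6h (log2 difference -2.41 ± 0.63, limma adjusted p = 0.01). Its TA_6h values lay far apart, lowest in replicate 1 and highest in replicate 4.

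The detoxification list gave 48 members, of which 18 were called higher and 4 lower (median log2 difference 0.46). Higher members included Gsta1 (2.29), Gsta4 (1.70), Ephx1 (1.97), Maob (2.53) and Aldh1a1 (1.65). Sult1a1, a phenol sulfotransferase, read 5543, 5232, 5962 and 4747 in EOM and 2547, 2637, 1567 and 1484 in TA_6h (log2 difference 1.43 ± 0.23, limma adjusted p = 0.00069). Lower members included Aldh1l1 and Cbr1 (-1.04). The glucocorticoid and stress list gave 14 members, of which 4 were called higher and 6 lower (median log2 difference -0.62), with Sgk1, a kinase induced by glucocorticoid, at 957, 777, 831 and 745 in EOM and 514, 362, 229 and 223 in TA_6h (log2 difference 1.40 ± 0.29, limma adjusted p = 0.0033) beside lower Nfkbia (-1.31). Idh1, the cytosolic NADPH-forming dehydrogenase, read 2959.7, 3416, 2725 and 2613 in EOM and 572, 982, 486 and 510.0 in TA_6h (log2 difference 2.25 ± 0.23, limma adjusted p = 4e-05). Ribosomal protein and translation genes gave 49 members, of which 12 were called higher and 6 lower (median log2 difference 0.24), against 19 higher and 7 lower after quantile normalization, a setting that called 629 of all 2582 genes higher. Rpl41 read 4100.5, 5071, 4031 and 5071 in EOM and 1145, 1209, 1835 and 2265 in TA_6h (log2 difference 1.55 ± 0.27, limma adjusted p = 0.0012) and Rps10 read 10169, 8994, 10813 and 8999.8 in EOM and 5343, 3863, 4904 and 4669.6 in TA_6h (log2 difference 1.06 ± 0.16, limma adjusted p = 0.00041). Vim, the intermediate filament of non-muscle and regenerating cells, read 8639.5, 7773, 8650.1 and 7858 in EOM and 2554, 1879, 2146 and 1653 in TA_6h (log2 difference 2.02 ± 0.17, limma adjusted p = 1.1e-05).

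EOM samples were close to each other, with a median SD of 0.22 on the log2 scale over the 2582 genes, against 0.31 in TA_6h. In 1617 of the 2582 genes TA_6h had the larger SD. EOM replicate 2 stood apart: 19 genes were more than 4-fold above the median of the other 3 EOM samples there, against 2, 1 and 6 genes in replicates 1, 3 and 4. More than 4-fold below it lay 12 genes in replicate 2 and 9, 8 and 9 genes in replicates 1, 3 and 4. The 6 genes of largest EOM spread included the prostaglandin synthase Ptgds, at 259, 2692, 212 and 189 in EOM and 100.2, 95.9, 105 and 232 in TA_6h, the acyl-CoA synthetase Acsl5, at 473, 3879.7, 278 and 315 in EOM and 287, 346, 396 and 299 in TA_6h, the elongation enzyme Hsd17b12, at 311, 3092, 263 and 240.3 in EOM and 286, 297, 271 and 441 in TA_6h, and the fatty acid carrier Fabp5, at 1289.8, 12313, 956 and 1229 in EOM and 616, 428, 409 and 575 in TA_6h. Also highest in replicate 2, and named after the values were seen, were the droplet protein Plin2 (1176, 10249, 1022 and 1126 in EOM and 1123, 663, 839 and 779 in TA_6h), the elongase Elovl5 (3319.8, 16373, 2753 and 3583 in EOM and 874, 678, 630.1 and 717 in TA_6h), Acly, which makes cytosolic acetyl-CoA (1932, 7129, 1912 and 1692 in EOM and 989, 854, 1115 and 1407 in TA_6h), and the fatty acid synthase Fasn (700.4, 2199, 488 and 489 in EOM and 659.9, 737, 679.5 and 621 in TA_6h). The other 3 EOM samples of Plin2, Hsd17b12 and Acsl5 lay close to the TA_6h range.

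Of these lipid genes 3 were called. Fabp5 (log2 difference 2.06 ± 0.70, limma adjusted p = 0.034), Elovl5 (log2 difference 2.74 ± 0.49, limma adjusted p = 0.0013) and Acly (log2 difference 1.27 ± 0.42, limma adjusted p = 0.033) were called higher, and Ptgds, Acsl5, Hsd17b12, Plin2 and Fasn were not. Without EOM replicate 2 these stayed called with smaller log2 differences, 1.20 for Fabp5, 2.15 for Elovl5 and 0.78 for Acly. Leaving out TA_6h samples ended calls instead. Fabp5 was not called without TA_6h replicate 1 (2.16), without TA_6h replicate 2 (1.99), without TA_6h replicate 3 (1.96), without TA_6h replicate 4 (2.13), with quantile normalization (1.93), against TA_6h replicates 1 and 2 alone (2.02) or against TA_6h replicates 3 and 4 alone (2.10). Acly was not called without TA_6h replicate 1 (1.23), without TA_6h replicate 2 (1.16), without TA_6h replicate 3 (1.29), with quantile normalization (1.10), against TA_6h replicates 1 and 2 alone (1.49) or against TA_6h replicates 3 and 4 alone (1.04). Without EOM replicate 2 the uncalled log2 differences of Hsd17b12 (-0.23) and Fasn (-0.29) fell below 0. The other 2 of the 6 genes of largest spread were not lipid genes: Gpr161, a receptor of the primary cilium, read 153, 1046, 119 and 1393 in EOM and 199.9, 209, 212 and 237 in TA_6h, and Plk1, a mitotic kinase, read 763, 57.4, 391 and 925 in EOM and 494, 829.9, 1108 and 954 in TA_6h.

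**Figure D5:**
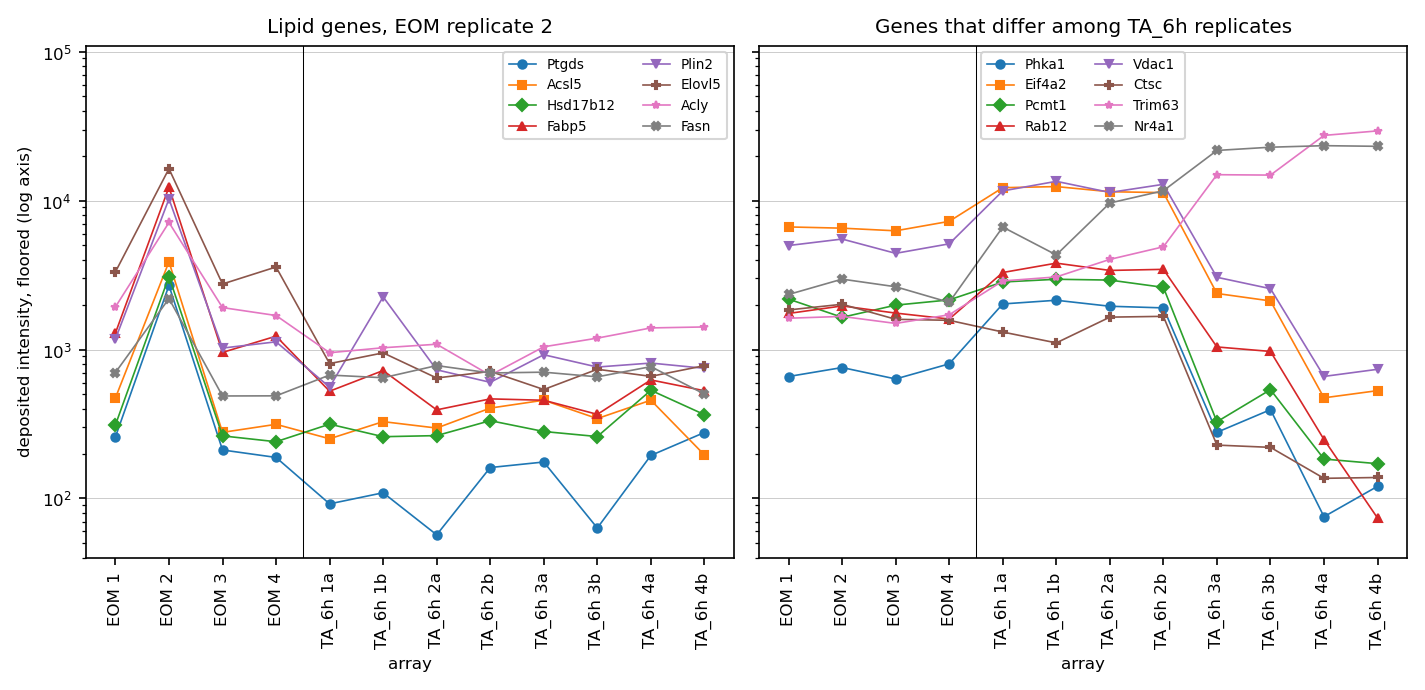
Intensity (log axis) on each of the 4 EOM and 8 TA_6h arrays for 8 lipid genes that stand out in EOM replicate 2 (left) and 8 genes that differ among TA_6h replicates (right). Lines join the arrays of a gene as a guide, arrays labelled without a letter are drawn as 1a and 2a, and the arrays of TA_6h replicates 1 and 2 lie apart from those of replicates 3 and 4 in the right panel.

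Within TA_6h, replicates 1 and 2 differed from replicates 3 and 4. In 185 genes the mean was more than 2-fold lower in replicates 3 and 4, in all 185 without overlap of the 2 samples with the other 2, and in 100 genes it was more than 2-fold higher. The 6 genes of largest difference were all low in replicates 3 and 4. Phka1, a subunit of the kinase that starts glycogen breakdown, read 659, 757, 634 and 801 in EOM and 2081, 1928, 331 and 95.4 in TA_6h. Vdac1, the main pore of the mitochondrial outer membrane, read 4992, 5517, 4424 and 5125 in EOM and 12506, 12076, 2797 and 697 in TA_6h. Eif4a2, a translation helicase, read 6654, 6529, 6268 and 7253 in EOM and 12313, 11390.2, 2245 and 501 in TA_6h, and the repair enzyme Pcmt1 read 2181, 1645, 1986 and 2153 in EOM and 2901, 2766, 419 and 177 in TA_6h. Rab12 read 1747, 1962, 1756 and 1602 in EOM and 3536, 3425, 1005 and 136 in TA_6h, and Ctsc, cathepsin C, read 1844, 2013, 1596 and 1571 in EOM and 1205, 1659.9, 224 and 137 in TA_6h. Another probe set of Ctsc was called higher (2.72). For each of the 6 the EOM values lay between the TA_6h sets or close to replicates 1 and 2.

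None of the 6 was called against all of TA_6h through its brightest probe set, and the sign of several depended on which samples stood for TA_6h. Rab12 differed by -0.98 against TA_6h replicates 1 and 2 (limma adjusted p = 0.011) and 2.26 against replicates 3 and 4 (limma adjusted p = 0.031). Vdac1 differed by -1.30 against TA_6h replicates 1 and 2 (limma adjusted p = 0.053) and 1.84 against replicates 3 and 4 (limma adjusted p = 0.048), and Eif4a2 by -0.83 against TA_6h replicates 1 and 2 (limma adjusted p = 0.07) and 2.65 against replicates 3 and 4 (limma adjusted p = 0.0079). Cs, citrate synthase, and Mybpc1, the slow myosin-binding protein C, were named after their values were seen. Cs read 2932, 3526, 3079 and 3205 in EOM and 3249, 3255, 720.3 and 403 in TA_6h, and Mybpc1 read 7895, 8447, 8198 and 7015 in EOM and 21769, 20643, 7231 and 1424 in TA_6h. Mybpc1 differed by -1.43 against TA_6h replicates 1 and 2 (limma adjusted p = 0.0079) and 1.29 against replicates 3 and 4 (limma adjusted p = 0.12). These replicates also differ in the beta-actin control ratio given above, whose part was not tested. Of the 690 genes called higher, 483 were called higher against each set of 2 TA_6h samples on its own, and of the 510 called lower, 302 were called lower against each. No called gene had the opposite sign against either set, an outcome that the calling rule fixes. A split of TA_6h wide enough to turn the sign widens the fitted spread too far for a call. This absence therefore says nothing about the split. Trim63 and Nr4a1 read higher in replicates 3 and 4, and both stayed called against each set, Trim63 by -1.16 against TA_6h replicates 1 and 2 (limma adjusted p = 0.02) and -3.66 against replicates 3 and 4 (limma adjusted p = 0.0002).

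At the edge of detection, 9 genes were called higher with all 8 TA_6h arrays at the floor, so their folds are bounds computed against the floor. Or9s23, annotated as an olfactory receptor, was at least 11.8-fold higher, with 613, 529.8, 612 and 985 in EOM. Rgs18, a regulator of G proteins in blood cells, was at least 7.73-fold higher, Sox10, the transcription factor of Schwann cells, at least 5.59-fold, and Nos1ap, a partner of neuronal nitric oxide synthase, at least 5.43-fold. Phex, a peptidase of bone, read 252, 334, 223 and 337 in EOM. Coro1a (2.81-fold), an actin-binding protein of leukocytes, Grm3 (2.54-fold), a glutamate receptor, Cyfip2 (2.40-fold) and Reg3b (1.76-fold) complete the set with the same kind of bound. Among the 1735 genes that were not above the floor on all 12 arrays, 281 were called higher and 583 lower. In 303 of the 583 all 4 EOM arrays lay at the floor. As values below 0 occur in the EOM columns alone, muscle and that difference between the columns cannot be told apart here, and those genes are not described further.

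Probe sets of a gene did not always give the same direction. Of the 188 genes whose several called probe sets all cleared the floor on each of the 12 arrays, 34 had calls in opposite directions. Beside those named above, Myl2, the slow myosin light chain, was called lower (-0.64) through its brightest probe set, with 1 other called higher (0.90) and 1 lower (-0.97). Tpm3 was called higher (0.68) and lower (-1.30) through another. Thbd, thrombomodulin, was called lower (-1.07), with another probe set called higher (1.18). For such genes the direction depends on the probe set, and the cause was not tested. Some named genes also have other probe sets that were not called, and not all of these are given above.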

How the data were processed

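RNA of 10 rat muscle samples was hybridised to 16 single-colour arrays, and 12 arrays of 8 samples enter this comparison. Each deposited column holds 1 array's intensity per probe set, linear in scale. The probe summary method is not given in the sources used. The 2%-trimmed mean was 800 on every array, so no further scaling was applied. Values under 56.5 (the 25th percentile) were raised to it, log2 was taken, and arrays of the same number were averaged. TA_6h arrays numbered 1 and 2 without a letter were joined with 1b and 2b, which is an inference. Non-control probe sets exceeding the floor on 4 or more of the 16 arrays (7640) were fitted with limma 3.58.1 (R 4.3.3; lmFit, eBayes) on EOM, TA_6h and TA_1h, with 7 residual degrees of freedom, and adjusted by Benjamini-Hochberg. Of the non-control probe sets, 7006 have a single symbol in GEO's platform annotation, which can be old, 308 have several and 1426 are not listed. A gene is its brightest tested probe set over the 12 arrays.

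Genes were named by a rule: the 20 largest differences each way among called genes above the floor on all 12 arrays without overlap; up to 4 called members per list; the 6 genes of largest spread in EOM and between TA_6h replicates 1 to 2 and 3 to 4; and genes at the TA_6h floor. Members and lists were chosen with earlier results of these data known. The script was tested on simulated data. Promoters are RefSeq's (GRCr8). The 22 alternatives covered normalization, floors, filters, blocks and samples left out, and leaving out array 1b of TA_6h was added after seeing the data. Figures used matplotlib 3.10.9 (Python 3.11.15).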

Additional observations from a re-analysis of the deposited data

Results flagged for a closer look

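Among 501 groups of 4 samples of the named genes, 24 (4.79%) held a sample whose gap to the nearest other sample, as a share of the group's range, exceeded Dixon's critical value. Chance alone marks about 1 in 20 groups that were not selected. Some of the genes were chosen for a wide spread, so that rate is no yardstick for them.

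In EOM replicate 2, 8 of these genes stood apart from the other EOM samples. Values were higher there for Acly (7129 against 1692 to 1932), Elovl5 (16373 against 2753 to 3583), Fabp5 (12313 against 956 to 1289.8), Hsd17b12 (3092 against 240.3 to 311), Plin2 (10249 against 1022 to 1176), Ptgds (2692 against 189 to 259) and Ctsd (4430.1 against 1705 to 1830.4), each against the range of the other 3 samples. Irf7 was lower there (489 against 1512 to 1785).

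In the other EOM samples the values that stood apart were Avp in replicate 4 (3407 against 2511 to 2598), Eif2b3 in replicate 4 (91.1 against 478 to 567), Cd9 in replicate 3 (2487 against 3326 to 3499.6), Jph2 in replicate 3 (2765 against 2317 to 2374), Taf6 in replicate 3 (145 against 578 to 614), Notch1 in replicate 1 (62.9 against 267 to 278), Plat in replicate 1 (771 against 623 to 645), Scarb1 in replicate 1 (546 against 2081 to 2215), C1qc in replicate 4 (647 against 198 to 237) and Ptprc in replicate 4 (369 against 440.2 to 455). In TA_6h they were Aif1 in replicate 2 (100.3 against 127 to 132), Aldh1l1 in replicate 4 (1834 against 1114 to 1168), Myl1 in replicate 3 (31546 against 23192 to 24243), Psmb9 in replicate 3 (323 against 197 to 198), Ptprc in replicate 3 (447 against 283 to 304) and Ptgds in replicate 4 (232 against 95.9 to 105).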

How the results depend on the processing

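Calls higher ranged from 1175 to 1863 over 23 alternatives, of which leaving out array 1b of TA_6h was chosen after seeing the data, and calls lower from 793 to 2792. Within the set detected on all 12 arrays the ranges were 908 to 1526 higher and 589 to 887 lower. A change of over 1.5 times occurred in a single count: testing only the set detected on all 12 arrays gave 793 lower calls in place of 1935, since fewer probe sets were tested. Leaving out a numbered sample gave 1468 to 1623 higher and 1661 to 1891 lower calls, and 994 to 1110 and 627 to 766 within that set. Without array 1b of TA_6h the counts were 1603, 1896, 1106 and 775. With the number as a replicate block the counts were 1642, 1865, 1092 and 722. Whether the numbers pair the samples was not settled. Deviations of same-numbered samples correlated at 0.105, 0.021, 0.032 and 0.071, and those of other pairs at -0.085 to 0.054. TA_6h 1 and TA_6h 4 correlated best with the EOM sample of the same number. TA_6h 2 correlated best with EOM 1 (0.047) and TA_6h 3 with EOM 4 (0.054). Of 222 called named genes, 197 kept direction and call in all alternatives that tested them. Among all named genes a change of sign with a call occurred for Rab12, at -0.98 against TA_6h replicates 1 and 2 alone, where the cause was not tested. With 4 samples a group, small differences of dim genes are beyond these arrays, and genes near the floor have bounds only.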
